A study of Mus musculus with 18 samples.

Results

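Feedback genes of the ERK pathway are described here across knockdown of Rnf185, which encodes a ubiquitin ligase of the endoplasmic reticulum membrane, in MPC3 mouse prostate cancer cells. The 10 members were chosen by symbol as known transcriptional outputs and feedback inhibitors of ERK signalling: Dusp1, Dusp4, Dusp5, Dusp6, Spry1, Spry2, Spry4, Spred1, Etv4 and Etv5. They are 10 of 47643 genes in the deposited count table, and all 10 were among the 14309 genes that passed the filter on low counts. The study compared 3 groups of 6 RNA-seq libraries from MPC3 cells: a group titled plko and labelled as control, and 1 group per Rnf185 hairpin, shRNF185.1 and shRNF185.3. Such hairpins are RNAs expressed in the cell that direct the degradation of a matching transcript. The labels name no other treatment, and give no further alleles. Each group has 2 libraries in each of 3 batches named in the labels, replicates 1 and 2 in batch 1, 3 and 4 in batch 2, and 5 and 6 in batch 3. Whether the libraries came from separate cultures, and whether each hairpin line is a clone or a pool, is not given in the sources used here, so p-values measure only the spread between these libraries.

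ERK is the last kinase of a cascade that runs from growth factor receptors through Ras, Raf and MEK. Active ERK switches on a set of genes whose products then damp the cascade, so their messenger RNA is often read as a gauge of ERK output. Dusp genes encode phosphatases that remove the activating phosphates from MAP kinases, Sprouty and Spred proteins hold back signalling from receptors to Raf, and Etv4 and Etv5 are ETS transcription factors that rise with ERK activity and are known in prostate cancer as fusion partners or overexpressed genes.

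RefSeq promoter windows on GRCm38.p6 were matched by symbol for 7 of the 10 members, as 8 windows of 300 bases that start 250 bases before a transcription start. Dusp4, Spry4 and Etv4 had no window among them. Each window was searched on both strands for the cAMP response element TGACGTCA, the AP-1 site TGANTCA, the ETS site CCGGAAGT, the TATA box TATAAA and the CArG box bound by serum response factor. The cAMP response element occurred in the Dusp1 window, beginning 143 bases before the start, and 1.79% of the 32851 windows of all genes hold it. The CArG box occurred in the Dusp5 window at 2 adjoining places, beginning 82 and 72 bases before the start, and 1.63% of all windows hold it. The other 6 windows held none of the 5 motifs, and the AP-1, ETS and TATA motifs, present in 7.81%, 3.89% and 13.6% of all windows, were in none of the 8. The bases before the start of Dusp1, chr17:26508473-26508722 on the minus strand, and of Dusp5, chr19:53528895-53529144 on the plus strand, are shown because these 2 nuclear phosphatases had the only matches. They read 5′ to 3′, with the motifs in capitals.
Dusp1: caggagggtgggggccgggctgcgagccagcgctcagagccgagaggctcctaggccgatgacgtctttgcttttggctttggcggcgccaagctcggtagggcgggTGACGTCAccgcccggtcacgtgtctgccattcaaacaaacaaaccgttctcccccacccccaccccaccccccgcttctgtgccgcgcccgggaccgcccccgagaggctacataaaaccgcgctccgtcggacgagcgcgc
Dusp5: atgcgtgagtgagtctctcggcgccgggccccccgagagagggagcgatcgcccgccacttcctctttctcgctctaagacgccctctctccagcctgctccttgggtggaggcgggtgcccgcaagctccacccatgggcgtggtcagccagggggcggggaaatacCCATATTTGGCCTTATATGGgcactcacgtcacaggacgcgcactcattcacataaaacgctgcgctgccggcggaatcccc

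Libraries held 22027395 to 43379662 counts. Rnf185 fell to 0.162 of its control level with each hairpin (log2 fold change -2.63 with both, edgeR adjusted p 9.3e-15 and 1.91e-14), and every hairpin library lay below every control library. Of the prostate and luminal markers, Krt8, Krt18, Cdh1 and Hoxb13 were detected in every library, Epcam reached at most 0.29 CPM and Pbsn was at 0 counts throughout. The summed level of the 4 luminal markers, mostly Krt8, was 1430 to 1750 CPM in the controls, 879 to 1160 CPM under shRNF185.1 and 953 to 1020 CPM under shRNF185.3. In control, shRNF185.1 and shRNF185.3 the medians were 1180, 812 and 839 CPM for Krt8 and 354, 180 and 150 CPM for Krt18. Those of Cdh1 were 31.2, 8.84 and 7.7 CPM. For Krt8, Krt18 and Cdh1 the hairpin libraries lay below all controls. The summed level of the 4 fibroblast markers, mostly Vim, was 2890 to 3920, 3450 to 4020 and 3560 to 4170 CPM. Of the fibroblast markers other than Vim, the median of Col1a1 in control, shRNF185.1 and shRNF185.3 was 84.0, 160 and 379 CPM, Pdgfra ranged over 72.6 to 101, 81.9 to 94.9 and 114 to 131 CPM, and Thy1 had a median of 0. Of the muscle markers, Acta2 had medians of 11, 32.4 and 67.9 CPM, and Myh11 and Des were at most 0.309 and 0.179 CPM in any library. Of the leukocyte markers Cd3e was at 0 counts and Ptprc at most 0.125 CPM. Cd68 was detected throughout, at 2.41 to 5.05 CPM in control, 1.74 to 2.86 CPM under shRNF185.1 and 2.2 to 3.17 CPM under shRNF185.3. The endothelial markers Cdh5, Pecam1 and Kdr were at most 0.0894, 0.375 and 0.424 CPM in any library. The part of these marker differences in the results that follow was not tested, and in bulk RNA fewer cells of a type and less RNA per cell cannot be told apart.

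Under shRNF185.1, 3 of the 10 feedback genes passed the test at an adjusted p under 0.05: Dusp1 was higher, and Dusp4 and Etv4 were lower. Over all genes tested 28.9% passed, 14.6% higher and 14.3% lower, so the members' share of 30% is near the background. Under shRNF185.3 the members that passed were also Dusp1, higher, and Dusp4 and Etv4, lower, again 30%, beside 27.3% of all genes, 14.2% higher and 13.1% lower. The 2 hairpins were compared with the same 6 control libraries, so their values are given side by side and not counted as separate evidence. The median log2 fold change of the 10 members was -0.13 under shRNF185.1 and -0.20 under shRNF185.3, and that of all genes was -0.02 with each. Groups without overlap were found for 0 of 10 members under shRNF185.1, where 12.8% of all genes had them, and for 1 of 10 under shRNF185.3, where 13.3% did. The members' values ran from -0.80 to 0.87 under shRNF185.1 and from -0.99 to 0.75 under shRNF185.3.

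**Figure D1:**
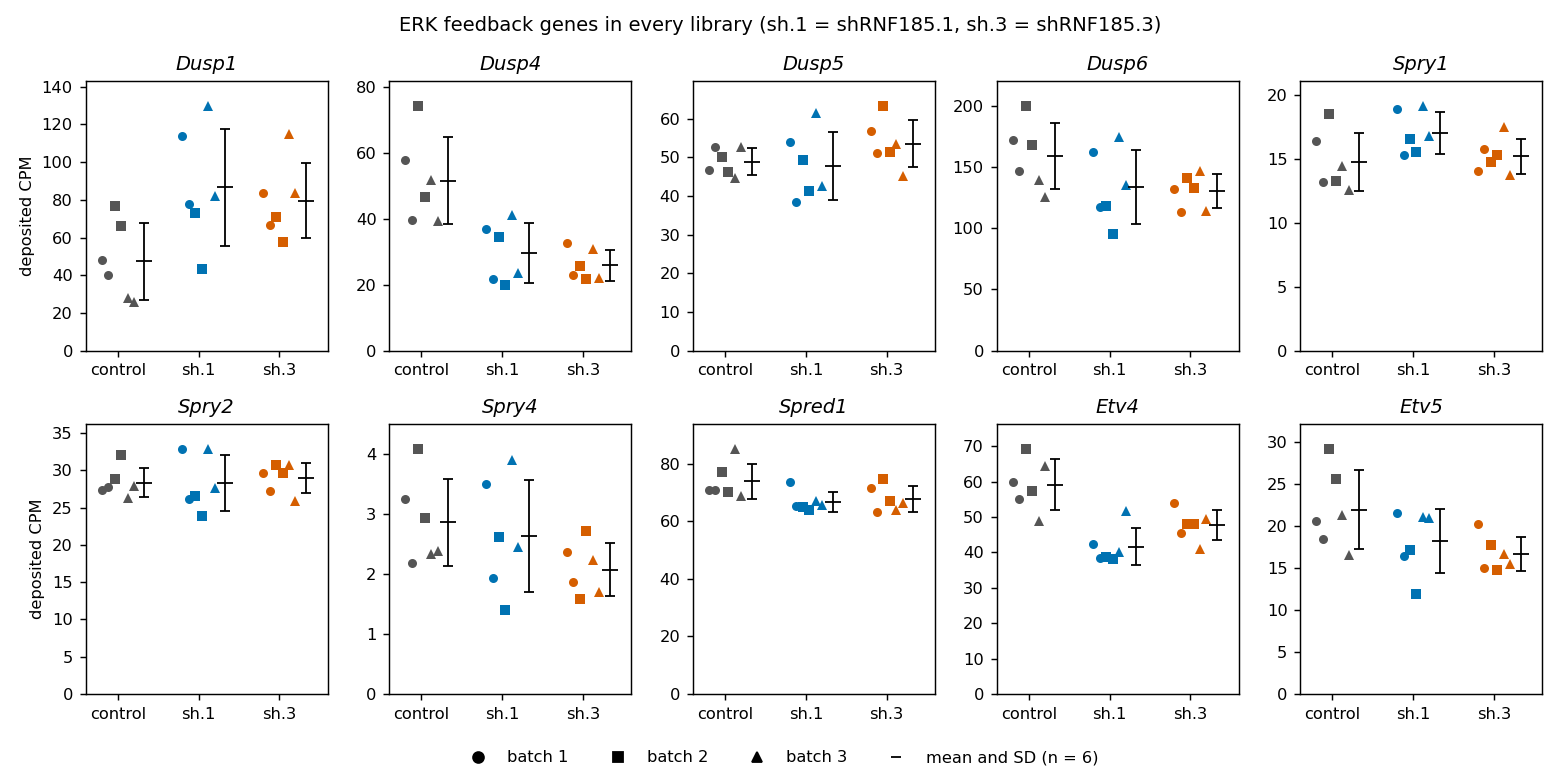
Deposited CPM (vertical axes, from 0) of the 10 feedback genes in the control, shRNF185.1 (sh.1) and shRNF185.3 (sh.3) libraries; each point is a library, its shape gives the batch, and the bar is the mean and SD of 6 libraries. Dusp4 lies lower with both hairpins, Dusp1 is high in most hairpin libraries but overlaps control, and Spry2 is level.

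Among the nuclear phosphatases, Dusp1 rose and Dusp4 fell, and Dusp5 did not pass the test. Dusp1 encodes an immediate-early phosphatase that acts on p38 and JNK as well as ERK. It lies at chromosome 17, 26505590 to 26562128, minus strand, in GENCODE M21 on GRCm38. Its level was 25.6, 44.0 and 76.8 CPM (lowest, median and highest of 6 libraries) in control, 43.1, 79.9 and 130 CPM under shRNF185.1, and 57.5, 77.2 and 115 CPM under shRNF185.3. The 2 hairpin groups reached higher than control but overlapped it: 4 and 3 of their 6 libraries lay above the highest control. Dusp1 was 1.82-fold higher under shRNF185.1 (log2 fold change 0.87, SE 0.27, edgeR adjusted p 0.0221) and 1.68-fold higher under shRNF185.3 (0.75, SE 0.27, adjusted p 0.0488). The exons of Dusp1 share 11 bases with those of Ergic1 on the other strand, and the strand setting of the counting is not given in the sources used here, so reads from those bases cannot be told apart.

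The Dusp1 difference was not the same in every batch. In batch 1 the mean level was 44.0 CPM in the controls, 95.8 CPM under shRNF185.1 and 75.4 CPM under shRNF185.3. In batch 2 the order was turned, with 71.4 CPM in control and 58.1 and 64.3 CPM with the hairpins. In batch 3 control was lowest, at 26.9 CPM, and the hairpin means were 106 and 99.2 CPM. The differences of mean log2 CPM in batches 1, 2 and 3 were 1.1, -0.35 and 1.93 under shRNF185.1 and 0.78, -0.16 and 1.86 under shRNF185.3. An edgeR test of whether the difference varied between batches, chosen after seeing the data, gave adjusted p 0.00547 and 0.0226 for Dusp1. That test passed for 14.3% of all genes under shRNF185.1 and for 5.18% under shRNF185.3. Among the other members it passed for Dusp6 and Etv5 under shRNF185.1 (adjusted p 0.0388 and 0.0365) and for none under shRNF185.3. Both hairpin means of Dusp1 in a batch come with the same control libraries.

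The Dusp1 call rests on which libraries enter and on how they are fitted. With the libraries of a batch and group summed it was lost for both hairpins (edgeR adjusted p 0.103 and 0.162). The shRNF185.3 call was also lost with batch as a covariate (0.74, adjusted p 0.0822), with library size alone as the scaling (0.77, adjusted p 0.0513) and with no filter on low counts (0.74, adjusted p 0.0614). Without batch 3 its log2 fold change was 0.41 (edgeR adjusted p 0.298) and 0.28 (adjusted p 0.516). Leaving out batch 1 gave 0.74 (adjusted p 0.239) and 0.73 (adjusted p 0.232), and leaving out batch 2 gave 1.51 (adjusted p 0.000311) and 1.3 (adjusted p 0.00119). Under shRNF185.1 the call was also lost without control replicate 5 (adjusted p 0.0518), shRNF185.1 replicate 1 (adjusted p 0.0537) or shRNF185.1 replicate 5 (adjusted p 0.0634). Under shRNF185.3 it was kept in 5 of the 18 fits that left out 1 library, and the adjusted p ranged from 0.0154 to 0.123. It was lost there without control replicates 1, 2, 5 or 6, shRNF185.1 replicates 1, 2, 3 or 6, or shRNF185.3 replicates 1, 2, 3, 5 or 6. The higher level of Dusp1 with both hairpins was present in batches 1 and 3.

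**Figure D2:**
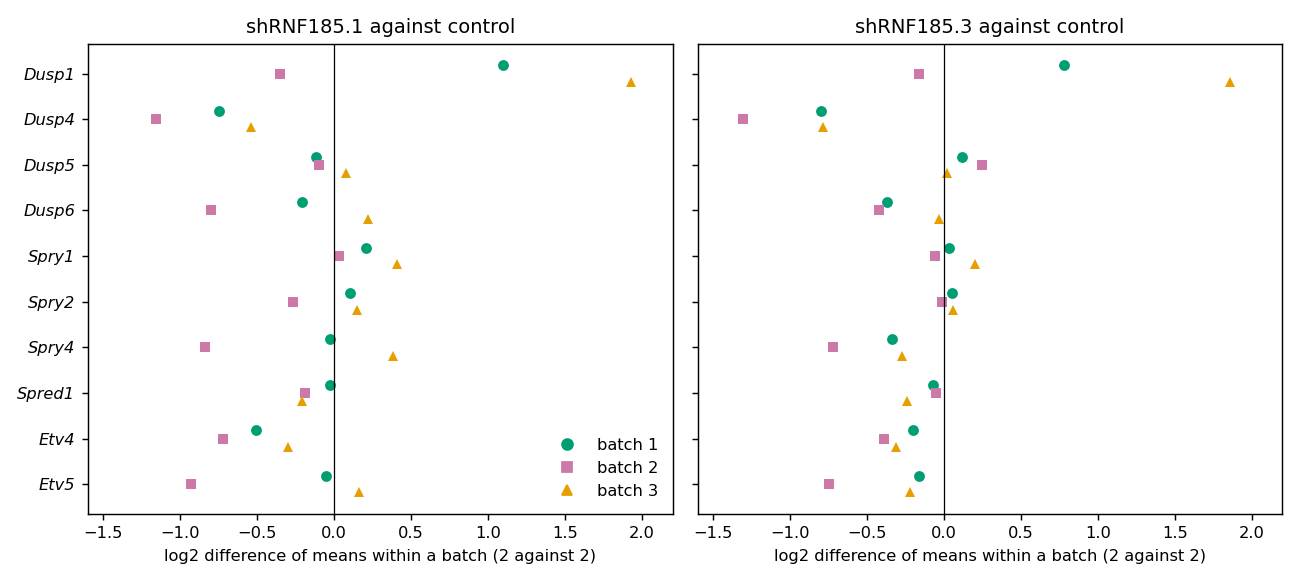
Difference of mean log2 CPM between hairpin and control libraries within each batch (horizontal axes, 2 libraries against 2) for the 10 feedback genes, with a panel for each hairpin. Dusp1 ranges from -0.35 to 1.93 under shRNF185.1 and from -0.16 to 1.86 under shRNF185.3, and Dusp4 and Etv4 lie left of 0 in all 3 batches with both hairpins.

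Dusp4, at chromosome 8, 34807297 to 34819894, plus strand, encodes a nuclear phosphatase that ERK induces and that acts on ERK and JNK. Its level was 39.4, 49.1 and 74.3 CPM in the controls, 20, 29.0 and 41.0 CPM under shRNF185.1, and 21.6, 24.3 and 32.6 CPM under shRNF185.3 (lowest, median and highest). All 6 shRNF185.3 libraries lay below the lowest control, and 5 of the 6 shRNF185.1 libraries did. Its fitted log2 difference was -0.80 (SE 0.19, edgeR adjusted p 0.0035) under shRNF185.1, a 1.74-fold lower level, and -0.99 (SE 0.19, adjusted p 0.000706) under shRNF185.3, a 1.98-fold lower level. Within batches 1, 2 and 3 it was -0.75, -1.16 and -0.54, and -0.80, -1.31 and -0.79. The fall of Dusp4 was called in all 18 fits without 1 library and in all 14 other alternatives with each hairpin, the largest adjusted p being 0.036 and 0.0142.

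Dusp5 encodes a nuclear phosphatase specific for ERK and lies at chromosome 19, 53529109 to 53542431, plus strand. Its level was 44.7, 48.5 and 52.8 CPM in the controls, 38.4, 45.9 and 61.4 CPM under shRNF185.1, and 45.1, 52.5 and 63.4 CPM under shRNF185.3. All 3 groups overlapped, and the log2 fold changes were -0.03 (95% interval -0.24 to 0.18) and 0.13 (-0.08 to 0.35), with edgeR adjusted p of 0.847 and 0.349. Its exons share 547 bases with AC137853.2 on the other strand, whose reads cannot be told apart from those of Dusp5 without the strand setting. AC137853.2 was not found by symbol among the deposited counts.

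Dusp6, the cytoplasmic phosphatase specific for ERK, lies at chromosome 10, 99263231 to 99267489, plus strand, and is widely used as a readout of ERK activity. Its level was 125, 157 and 200 CPM in the controls, 94.9, 126 and 174 CPM under shRNF185.1, and 113, 132 and 147 CPM under shRNF185.3. The hairpin medians were lower than the control median, but the groups overlapped, and 3 and 2 of 6 hairpin libraries lay below the lowest control. The log2 fold changes of -0.25 (SE 0.13) and -0.28 (SE 0.13) did not pass the test (edgeR adjusted p 0.173 and 0.122). In batches 1, 2 and 3 the differences were -0.21, -0.80 and 0.22 under shRNF185.1 and -0.37, -0.42 and -0.03 under shRNF185.3. Without batch 3 the shRNF185.1 value was -0.48 and passed (adjusted p 0.0276), and with an offset for GC content and length the shRNF185.3 value was -0.33 and passed (adjusted p 0.0444).

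None of the 3 Sprouty genes passed the test with either hairpin by edgeR. Spry1, at chromosome 3, 37639947 to 37644598, plus strand, was at 12.6, 13.9 and 18.5 CPM in the controls, 15.3, 16.7 and 19.2 CPM under shRNF185.1, and 13.8, 15.0 and 17.5 CPM under shRNF185.3. Its log2 fold changes were 0.21 (SE 0.09, edgeR adjusted p 0.0965) and 0.05 (SE 0.09, adjusted p 0.739), and without control replicate 3, the highest control library, the first was 0.29 and passed (adjusted p 0.0149). It also passed without batch 2 (0.31, adjusted p 0.0369) and when the library pair of every batch and group was summed (0.24, adjusted p 0.0267). The exons of Spry1 share 710 bases with Gm42922 on the other strand, so reads from there cannot be told apart. Gm42922 had at most 5 counts in a library, and Spry1 317 to 569.

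Spry2, at chromosome 14, 105891947 to 105896819, minus strand, was the most level member. It stood at 26.3, 27.8 and 32.0 CPM in the controls, 23.9, 27.1 and 32.9 CPM under shRNF185.1, and 25.9, 29.7 and 30.7 CPM under shRNF185.3. The 95% intervals of its log2 fold changes ran from -0.16 to 0.16 and from -0.13 to 0.19 (edgeR adjusted p 0.986 and 0.783). Spry4 had the lowest counts of the members, 36 to 126 per library, at 2.19, 2.66 and 4.09 CPM in the controls, 1.40, 2.54 and 3.90 CPM under shRNF185.1, and 1.58, 2.05 and 2.71 CPM under shRNF185.3. Its log2 fold changes were -0.12 (SE 0.22, edgeR adjusted p 0.715) and -0.46 (SE 0.22, adjusted p 0.135). No change of Spry4 was detectable at this depth and spread, and the 95% intervals, -0.58 to 0.33 and -0.92 to 0.01, leave room for a fall as large as that of Etv4.

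Spred1, which brings neurofibromin to the membrane to switch off Ras, lies at chromosome 2, 117121374 to 117182279, plus strand. Its level was 68.9, 70.9 and 85.2 CPM in the controls, 64.0, 65.3 and 73.7 CPM under shRNF185.1, and 63.2, 66.7 and 74.6 CPM under shRNF185.3. Below the lowest control lay 5 of 6 and 4 of 6 hairpin libraries, but the highest library of each hairpin group overlapped the controls. The log2 fold changes were -0.15 (SE 0.06, edgeR adjusted p 0.0606) and -0.12 (SE 0.06, adjusted p 0.128). Without control replicate 6 the shRNF185.1 value was -0.17 (adjusted p 0.0463), without shRNF185.1 replicate 1 it was -0.18 (adjusted p 0.0278), and with the offset for GC content and length it was -0.12 (adjusted p 0.00764). The same offset gave -0.12 (adjusted p 0.00544) under shRNF185.3.

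Of the 2 ETS factors, Etv4 fell and Etv5 did not pass the test. Etv4, at chromosome 11, 101769742 to 101785371, minus strand, was at 48.8, 58.6 and 69.3 CPM in the controls, 38.1, 39.4 and 51.7 CPM under shRNF185.1, and 41.0, 48.0 and 54.1 CPM under shRNF185.3. All but 1 of the shRNF185.1 libraries and 4 of the 6 shRNF185.3 libraries lay below the lowest control. Its fitted log2 difference was -0.51 (SE 0.09, edgeR adjusted p 0.000229), a 1.42-fold lower level, under shRNF185.1 and -0.31 (SE 0.09, adjusted p 0.0136), a 1.24-fold lower level, under shRNF185.3. Within batches 1, 2 and 3 it was -0.51, -0.72 and -0.30, and -0.20, -0.39 and -0.31. The shRNF185.3 call was lost without batch 1 (-0.36, adjusted p 0.064) and without batch 2 (-0.26, adjusted p 0.0954), and kept in all 18 fits without 1 library.

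Etv5, the close relative of Etv4 at chromosome 16, 22381309 to 22439719, minus strand, was at 16.5, 21.0 and 29.2 CPM in the controls, 11.9, 19.1 and 21.6 CPM under shRNF185.1, and 14.8, 16.1 and 20.2 CPM under shRNF185.3. The medians were lower with both hairpins and all groups overlapped. The log2 fold changes were -0.27 (SE 0.15, edgeR adjusted p 0.179) and -0.40 (SE 0.15, adjusted p 0.0506). The second passed with DESeq2 (-0.39, adjusted p 0.0337), with the GC and length offset (-0.46, adjusted p 0.0124), and without control replicate 2 (adjusted p 0.0409), control replicate 6 (adjusted p 0.0233), shRNF185.1 replicate 4 (adjusted p 0.0244) or shRNF185.3 replicate 1 (adjusted p 0.0335). In batch 2 the differences were -0.93 and -0.75, against -0.05 and -0.16 in batch 1 and 0.16 and -0.22 in batch 3. Etv5 levels are uncertain, because 18.7% of the 75-base windows of its transcripts also occur in Gm4798. That gene was not found by symbol among the deposited counts.

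**Figure D3:**
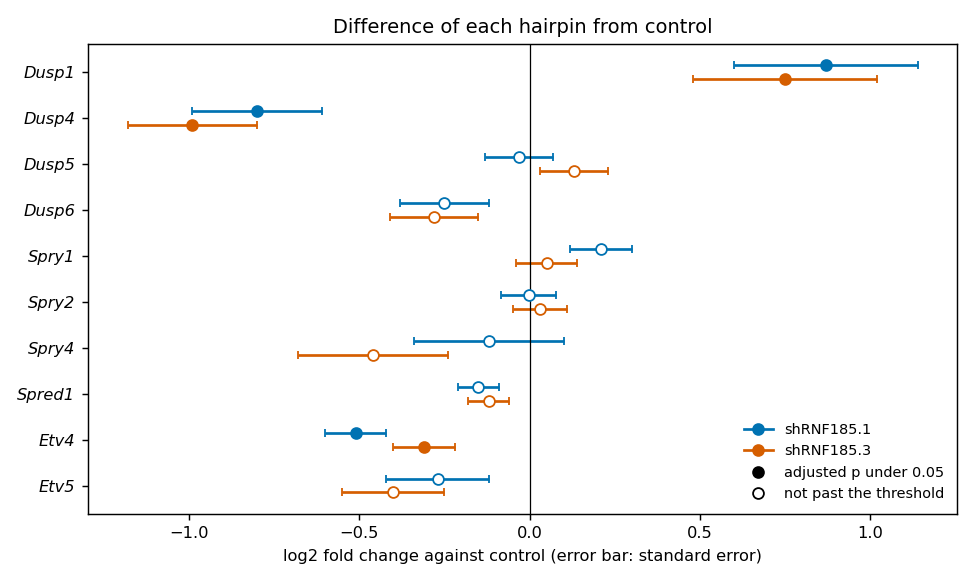
Log2 fold change against control (horizontal axis, point) with its standard error (bar) for the 10 feedback genes and both hairpins; filled points passed an adjusted p under 0.05 by edgeR. Dusp1 is the gene to the right at 0.87 and 0.75, and Dusp4 at -0.80 and -0.99 and Etv4 at -0.51 and -0.31 are the filled points to the left.

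Set directly against each other, the hairpins differed in 0 of the 10 members by edgeR, where 14.7% of all genes differed. The count was also 0 with DESeq2 and with limma-voom, and 1 member, Etv4, had an unadjusted p under 0.05. The Etv4 difference, shRNF185.3 minus shRNF185.1, was 0.20 (95% interval 0.02 to 0.39, edgeR adjusted p 0.144), and it passed without batch 3 (0.32, adjusted p 0.019) and without shRNF185.1 replicate 6 (0.27, adjusted p 0.0287). For Dusp1 the difference was -0.12 (95% interval -0.68 to 0.45) and for Dusp4 -0.19 (-0.59 to 0.21). Both intervals hold a difference as large as that of Etv4.

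Levels of different genes were compared as CPM per kilobase of exon. In control, Dusp6 was highest at 50.6 ± 8.58 CPM per kilobase (SD, n = 6), and its range did not overlap that of the next gene. Dusp5 (19.8 ± 1.40), Etv4 (19.1 ± 2.3), Dusp4 (18.8 ± 4.82) and Dusp1 (14.3 ± 6.20 CPM per kilobase) overlapped their neighbours in that order. Dusp1 also overlapped Spry2 (13.6 ± 0.937). Spred1 (10.9 ± 0.918) lay below Spry2, and Etv5 (5.35 ± 1.15) and Spry1 (5.08 ± 0.788) lay below Spred1 and overlapped each other. Spry4 was lowest at 0.603 ± 0.152 CPM per kilobase, apart from all others.

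A pattern by replicate number, noticed in the data, ran through the members within each group and batch. In all 9 pairs of libraries that share a group and a batch, the odd-numbered library was higher than the even-numbered library for Dusp1, Dusp4, Dusp6 and Etv5, 4 of 10 members, where 5.36% of all genes showed this. The median ratio of odd to even was 1.25 for Dusp1, 1.46 for Dusp4, 1.19 for Dusp6 and 1.20 for Etv5. The ratio for Dusp4 was 1.19 to 1.75 over the 9 pairs. For 8 of the 10 members the odd-numbered library was higher in at least 7 of 9 pairs. The share of all genes that reach 7 of 9 was not computed, so this count has no background beside it. The median over all genes was 4 pairs. What the odd and even numbers stand for is not given in the sources used here, and the part of this difference in the hairpin comparisons was tested only by adding it to the fit, as an alternative chosen after seeing the data. With odd or even number as a covariate, 5 members were called under shRNF185.1, Spry1 (0.22, edgeR adjusted p 0.0346) and Spred1 (-0.15, adjusted p 0.0255) being added, and 4 under shRNF185.3, Etv5 (-0.40, adjusted p 0.0243) being added.

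**Figure D4:**
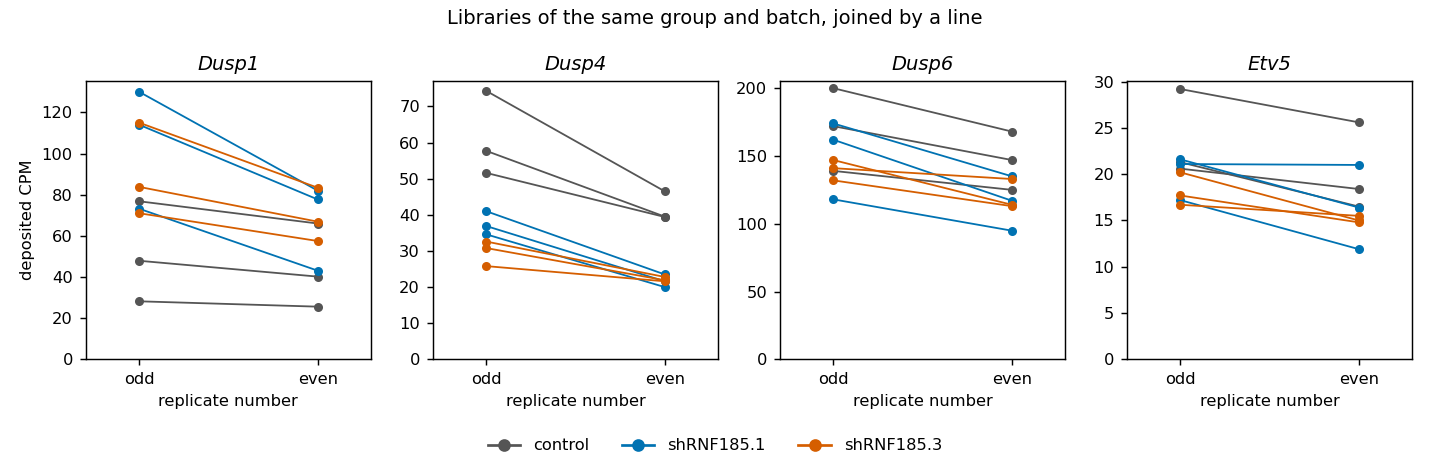
Deposited CPM (vertical axes, from 0) of Dusp1, Dusp4, Dusp6 and Etv5 in the odd-numbered and the even-numbered library of each group and batch, joined by a line and coloured by group. All 9 lines fall from odd to even in each panel, though 1 of the Etv5 lines is nearly level, with a ratio of 1.00.

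The genes most like each called member over the 18 libraries were found by the root mean square difference of log2 CPM after centring each gene. For Dusp1 they were Parp10 (0.234), Irf9 (0.243) and Ddx58 (0.252). Parp10 encodes an ADP-ribosyltransferase, Irf9 a subunit of the interferon-activated ISGF3 factor and Ddx58 the RNA sensor RIG-I. The closest feedback gene to Dusp1 was Spry1, at place 1597 with a difference of 0.532. Ddx58 rose with both hairpins (log2 fold change 0.82 and 0.75, edgeR adjusted p 0.000819 and 0.00181), as did Parp10 (0.81 and 0.90, adjusted p 0.00359 and 0.00167). Irf9 rose under shRNF185.1 (0.85, edgeR adjusted p 0.024) and was at 0.58 under shRNF185.3, which did not pass (adjusted p 0.125). In control, batch 2 was highest and batch 3 lowest for these genes. Irf9 was at 17.1, 27.4 and 8.83 CPM in batches 1, 2 and 3, Parp10 at 33.9, 41.3 and 19.6 CPM, and Ddx58 at 41.7, 52.4 and 29.6 CPM. They were picked for likeness to Dusp1 over all 18 libraries, control included, so a batch order shared with Dusp1 follows from the choice.

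For Dusp4 the most like genes were Jup (0.148), which encodes the junction protein plakoglobin, Cyb561 (0.185), a cytochrome, and Plekhh1 (0.198). Jup fell from 77.3 ± 16.2 CPM in control to 38.1 ± 9.54 and 33.3 ± 5.14 CPM (SD, n = 6), with log2 fold changes of -1.02 and -1.21 (edgeR adjusted p 8.58e-05 and 1.53e-05). The closest feedback gene to Dusp4 was Etv5, at place 156 with a difference of 0.348. For Etv4 they were Qdpr (0.110), an enzyme of tetrahydrobiopterin recycling, Dok1 (0.123), a docking protein of tyrosine kinases, and Krt10 (0.138), a keratin. Qdpr fell by 0.51 and 0.38 on the log2 scale (edgeR adjusted p 7.59e-07 and 2.26e-05), and Dok1 by 0.42 and 0.28 (adjusted p 1.75e-05 and 0.000903). Krt10 fell by 0.45 under shRNF185.1 (edgeR adjusted p 0.00011) and was at -0.12 under shRNF185.3, which did not pass (adjusted p 0.206). The closest feedback gene to Etv4 was Spred1, at place 1100. Because each called member differs between groups, genes with the same group difference score as alike.

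Other genes of the pathway were counted from 4 lists of 42 genes, of which 41 were tested, Spry3 being filtered out. Under shRNF185.1, 17 of 41 passed, 9 higher and 8 lower, and under shRNF185.3, 12 of 41, 4 higher and 8 lower, which is 41.5% and 29.3% beside the 28.9% and 27.3% of all genes. Of 16 genes of the cascade from Grb2 to ERK, 6 passed under shRNF185.1, 4 higher and 2 lower, and 3 under shRNF185.3, 1 higher and 2 lower, or 37.5% and 18.8%. Ksr1, a scaffold for Raf, MEK and ERK, was the cascade gene that rose with both, from 21.5 ± 1.68 CPM to 27.8 ± 2.16 and 31.0 ± 2.05 CPM (SD, n = 6), and its hairpin libraries did not overlap control. Its log2 fold changes were 0.37 (edgeR adjusted p 0.000195) and 0.53 (adjusted p 3.76e-06).

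Of 6 other MAP kinase phosphatases, 2 passed with each hairpin, 33.3% beside 28.9% and 27.3% of all genes. Dusp10, which acts on p38 and JNK, moved in opposite directions: it was at 23.8 ± 3.65 CPM in the controls, 28.3 ± 1.75 CPM under shRNF185.1 and 16.9 ± 1.28 CPM under shRNF185.3. Its log2 fold changes were 0.25 (edgeR adjusted p 0.029) and -0.49 (adjusted p 0.000228), and the hairpins differed by -0.74 (shRNF185.3 minus shRNF185.1, adjusted p 5.93e-06) without overlap. The rise of Dusp10 under shRNF185.1 was lost in 7 of the 18 fits without 1 library, those without control replicates 1, 2, 5 or 6 or shRNF185.1 replicates 1, 2 or 5, with an adjusted p of at most 0.0708. It was also lost without batch 1 (0.15, adjusted p 0.408) and without batch 3 (0.17, adjusted p 0.305), with no filter (adjusted p 0.0595), with the GC and length offset (adjusted p 0.057) and with summed libraries (adjusted p 0.145), and the difference in batch 2 was -0.09. Dusp2 was very low, with 0 to 9 counts per control library, 11 to 18 under shRNF185.1 and 11 to 32 under shRNF185.3, and its log2 fold changes were 1.36 (edgeR adjusted p 0.00672) and 1.98 (adjusted p 0.000224). On the log2(CPM + 1) scale the Dusp2 values were 0.35 and 0.58, and without batch 2, which holds the control library at 0, the first was 0.84 (adjusted p 0.0579).

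Of 9 other inhibitors tested, 3 fell under shRNF185.1 and none rose, and under shRNF185.3 2 fell and 1 rose. That is 33.3% called with each hairpin, near the 28.9% and 27.3% of all genes, of which 14.3% and 13.1% were lower. Rasa2, a GTPase-activating protein for Ras, fell from 19.0 ± 1.67 CPM to 14.8 ± 1.57 and 13.6 ± 1.13 CPM (log2 fold change -0.37 and -0.48, edgeR adjusted p 0.00171 and 0.000167). Cbl, a ubiquitin ligase that sends activated receptors for degradation, fell from 70.8 ± 6.94 CPM to 50.2 ± 4.96 and 57.1 ± 3.89 CPM (-0.50 and -0.31, adjusted p 4.91e-05 and 0.00409). For both genes the hairpin libraries lay below all controls. The shRNF185.3 call of Cbl was lost without batch 3 (-0.26, adjusted p 0.0526).

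Of 10 other transcriptional outputs of ERK, 6 passed under shRNF185.1, 3 in each direction, and 4 under shRNF185.3, 1 higher and 3 lower, which is 60% and 40% beside 28.9% and 27.3% of all genes. Epha4, an ephrin receptor, fell from 6.53 ± 1.11 CPM to 2.92 ± 0.569 and 3.11 ± 0.714 CPM without overlap (log2 fold change -1.16 and -1.06, edgeR adjusted p 1.93e-05 and 5.07e-05). Hbegf, an EGF receptor ligand, fell by 0.24 and 0.39 on the log2 scale (adjusted p 0.0319 and 0.00116), and Ccnd1, which encodes cyclin D1, fell by 0.37 and 0.32 (adjusted p 0.00826 and 0.0208). Etv1, the third ETS factor of the family of Etv4 and Etv5, rose by 0.38 and 0.41 (adjusted p 0.0415 and 0.0308). These 3 calls depended on the libraries and the fit. Etv1 was not called under shRNF185.1 without control replicates 2, 4 or 6 or shRNF185.1 replicates 1, 2, 5 or 6 (0.31 to 0.40, adjusted p at most 0.097), nor under shRNF185.3 without control replicates 2 or 6 or shRNF185.3 replicates 1, 3 or 4 (0.34 to 0.40, adjusted p at most 0.0725). Hbegf was not called under shRNF185.1 without control replicates 2, 3 or 6 or shRNF185.1 replicates 2, 4 or 6 (adjusted p at most 0.0824). Ccnd1 was not called under shRNF185.3 without control replicate 6 (-0.25, adjusted p 0.0568) or shRNF185.3 replicate 5 (-0.29, adjusted p 0.0535). Without batch 3 Ccnd1 was -0.20 (adjusted p 0.154) and -0.12 (adjusted p 0.40), and neither call held without batch 1 (adjusted p 0.13 and 0.0933) or with summed libraries (adjusted p 0.0937 and 0.142). The Etv1 calls were lost with batch as a covariate (adjusted p 0.0658 and 0.0512), with summed libraries (adjusted p 0.0577 and 0.0509), without batch 1 (adjusted p 0.249 and 0.158) and without batch 3 (adjusted p 0.339 and 0.0768). For Etv1 the first was lost with no filter (adjusted p 0.0601) and the second without batch 2 (adjusted p 0.0635). The shRNF185.1 call of Hbegf was lost with batch as a covariate (adjusted p 0.0524), library size alone (adjusted p 0.0641), no filter (adjusted p 0.0528), summed libraries (adjusted p 0.069), and without batch 1 (adjusted p 0.173) or batch 3 (adjusted p 0.17). Its shRNF185.3 call was lost without batch 3 (-0.31, adjusted p 0.0518). Ccnd1 differed from control by 0.05 and -0.02 in batch 2 and by -0.70 and -0.71 in batch 3. Epha2 and Fosl1 passed under shRNF185.1 alone, both higher (log2 fold change 0.29 and 0.19, edgeR adjusted p 0.0252 and 0.0188). Egr1, Ier3, Myc and Phlda1 did not pass with either hairpin. By the edgeR test between batches, the difference of Egr1 from control varied with both hairpins (adjusted p 0.0295 and 0.0307). That of Ier3 varied under shRNF185.1 (adjusted p 0.0228). Among the named genes called with both hairpins, the same edgeR test passed for Ccnd1 (adjusted p 0.0184 and 0.0469) and Dusp10 (adjusted p 0.0223 and 0.0401). Under shRNF185.3 the Dusp10 differences in batches 1, 2 and 3 were -0.28, -0.84 and -0.31. The test also passed for some listed genes that are not named here.

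**Figure D5:**
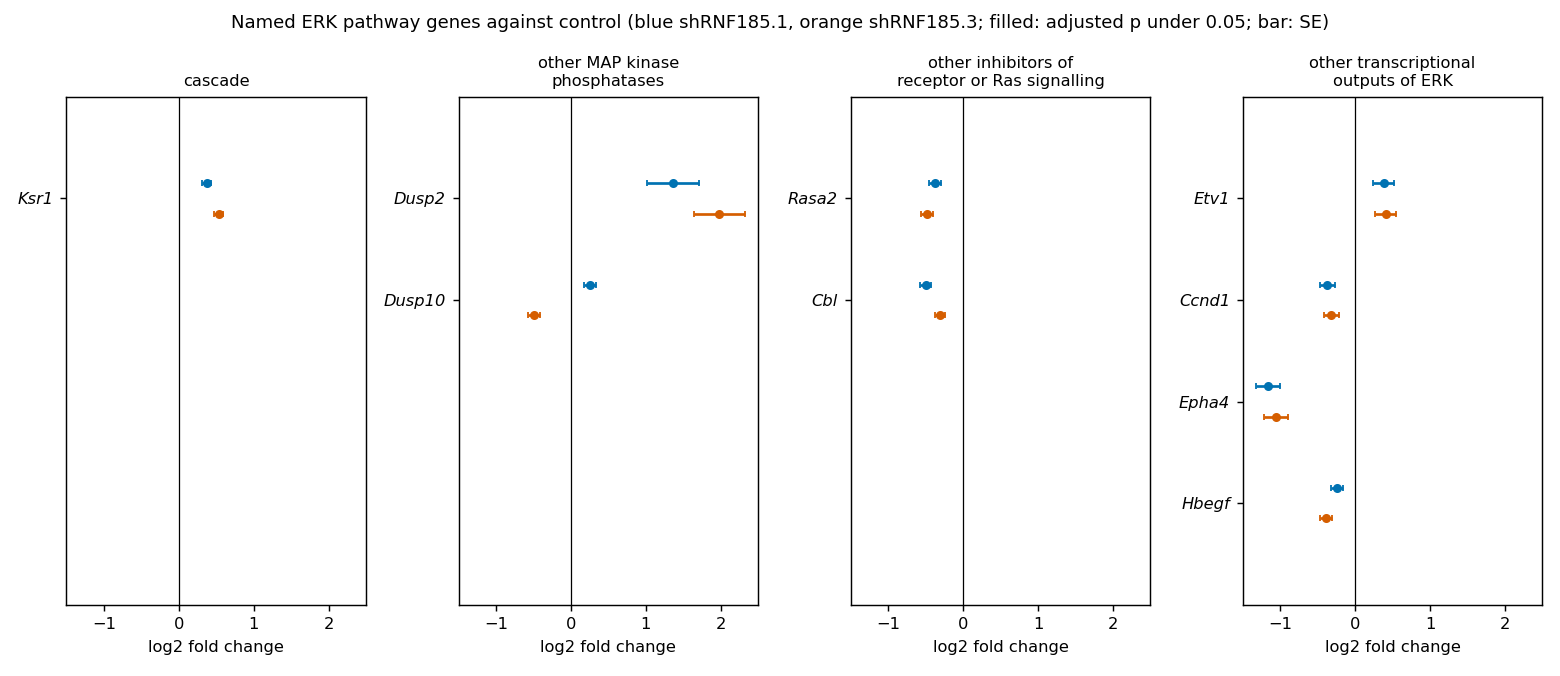
Log2 fold change against control (horizontal axes) with its standard error for the other pathway genes called with both hairpins (blue shRNF185.1, orange shRNF185.3), in 4 panels by list; filled points passed an adjusted p under 0.05 by edgeR. Epha4 lies at -1.16 and -1.06, Dusp2 at 1.36 and 1.98, and Dusp10 on both sides of 0.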

How the data were processed

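Polyadenylated RNA of 18 libraries was read with 75-base single-end reads from a directional kit, per the labels' protocols. The submitters' processing notes name cutadapt 2.3, STAR 2.7.0d, RSEM 1.3.1 and mm10. The authors deposited estimated counts and a CPM signal, both named for the ComBat-Seq batch adjustment. Whether that adjustment was given the groups is not given in the sources used here. The fit behind the calls has no batch term and takes no account of what the adjustment removed, so its p-values may be too small. With batch as a covariate, 3559 genes were called under shRNF185.1 and 3260 under shRNF185.3, in place of 4141 and 3906. Of the deposited estimated counts 0.466% are not whole, and these were rounded. The deposited CPM signal equals counts over TMM effective library sizes, within a relative difference of 1.04e-06.

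Counts were tested with edgeR 4.0.16 in R 4.3.3 (filterByExpr minimum 10, TMM, quasi-likelihood, a mean per group, Benjamini-Hochberg over 14309 genes). Calls required an adjusted p below 0.05. Standard errors come from the fold change and its F statistic, and 95% intervals from these and the test's degrees of freedom, unadjusted over genes. The design had assumed whole counts. Log2 CPM used a prior count of 2. Alternatives used DESeq2 1.42.0, limma 3.58.1 (with a pseudocount of 1 on CPM) and mgcv 1.9.3.

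The members and lists were chosen with earlier results of these data known. Members are all named. From each other list, the up to 4 genes of largest change called in the same direction with both hairpins are named, and any called in opposite directions. Epha2, Fosl1, Egr1, Ier3, Myc and Phlda1 were named after their values were seen. For each called member the 3 most alike genes are named. Some items are not reported here, and they stay in the counts over lists.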

Additional observations from a re-analysis of the deposited data

Results flagged for a closer look

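Within groups of 6 libraries, 5 of 66 groups of values held a library far from the others, where chance flags about 1 in 20 groups, or 3.3. On the log2 CPM scale Spred1 was at 6.21 in shRNF185.1 replicate 1 against 6.07 in the nearest library, and Etv4 was at 5.69 in shRNF185.1 replicate 6 against a nearest value of 5.41. Ksr1 was at 5.0 in shRNF185.1 replicate 5 against a nearest value of 4.80. Dusp2 was at -3.82 in control replicate 3, where it had 0 counts, against a nearest value of -2.09. Il17rd, an inhibitor of FGF receptor signalling, was at 0.73 in shRNF185.3 replicate 3 against a nearest value of 1.28.

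Differences between the hairpins, shRNF185.3 minus shRNF185.1, were -0.74 for Dusp10 and 1.21 for Il17rd, which was chosen after its values were seen. Il17rd was at 1.74 ± 0.506 CPM in the controls, 1.05 ± 0.329 CPM under shRNF185.1, and 2.43 ± 0.453 CPM under shRNF185.3 (SD, n = 6), and the difference between hairpins had an edgeR adjusted p of 0.000782. Among the members, the hairpin difference from control varied between batches for Dusp1 under shRNF185.1 (edgeR adjusted p 0.00547) and under shRNF185.3 (adjusted p 0.0226). It also varied for Dusp6 (adjusted p 0.0388) and Etv5 (adjusted p 0.0365) under shRNF185.1.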

How the results depend on the processing

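Of the members, Dusp4 with both hairpins and Etv4 under shRNF185.1 kept their direction and call in every alternative run. The count of 3 called members was 5 under shRNF185.1 with odd or even replicate number as a covariate, chosen after seeing the data, and under shRNF185.3 it was 6 with the GC and length offset and 1 without batch 1. Between the hairpins the count of 0 was 1 without batch 3, and leaving out a library gave 0 to 1, and 2 to 4 under each hairpin against control. That offset moved the share of all calls that were higher from 51.8% to 35.3% under shRNF185.3 and from 52.7% to 41.7% between the hairpins. Counts of all calls were 2207 and 2120 without batch 1, in place of 4141 and 3906, 2501 under shRNF185.3 without batch 3, and between the hairpins 753 without batch 1 and 1208 without batch 2, in place of 2098. The cause was not tested.

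Reversed directions all concerned values that did not pass the test. Under shRNF185.1 they were Dusp5 without batch 1 (0.0047), Spry2 with RLE size factors (0.001), library size alone (0.02), DESeq2 (0.00047) and summed libraries (0.00011), and, without batch 2, Dusp6 (0.01), Spry2 (0.13), Spry4 (0.21) and Etv5 (0.06). Under shRNF185.3 Spry1 was -0.05 with the GC and length offset and -0.03 without batch 3. Between the hairpins Dusp6 was 0.04 without batch 1 and 0.08 without batch 3, Etv5 was 0.01 without batch 3, Spred1 was -0.01 with the offset, and without batch 2 Spry2 was -0.08 and Spred1 -0.04. Leaving out a library gave ranges that crossed 0 under shRNF185.1 for Dusp5 (-0.12 to 0.03), Spry2 (-0.05 to 0.05) and Spry4 (-0.27 to 0.01). Between the hairpins they did so for Dusp1 (-0.26 to 0.03), Dusp6 (-0.12 to 0.06), Spry2 (-0.01 to 0.08) and Spred1 (-0.0026 to 0.06).

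Same-numbered libraries of different groups had a mean correlation of -0.0144 in their deviations (18 pairs, -0.628 to 0.705, 4 over 0.1). The fit behind the calls did not take the numbers as pairing. A mean near 0 over so wide a range cannot show that a shared number has no effect. Odd and even numbers did differ for several members. With the replicate block 2, 2 and 0 members were called. Dusp1 was then 0.83 (edgeR adjusted p 0.0547) and 0.73 (adjusted p 0.0889), and Dusp10 under shRNF185.1 was 0.25 (adjusted p 0.0628).

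Of the other pathway genes, alternatives are given only for those called with both hairpins, and for Dusp10 and Il17rd between the hairpins. They were added after seeing the data, and no direction reversed in them. These genes were picked for their calls, so this does not extend to the rest of the lists. Depth was low for Dusp2, Il17rd and Spry4, at 0 to 32, 16 to 103 and 36 to 126 counts per library.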
